A study of Mus musculus with 12 samples.

Results

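The mesenteric lymph node (mLN) drains the intestine, and the TCR beta chains of CD4+ T cells from this node were compared between WT and AMPKα1-deficient (KO) T cells. All mLN libraries of the series were taken, which makes 6 of 12 libraries, 3 WT (replicates 1, 3 and 4) and 3 KO (replicates 1, 2 and 3). WT cells came from PRKAA1fl/fl donors and KO cells from CD4-Cre PRKAA1fl/fl donors on the C57BL/6 background, so the controls carry the floxed allele as well, without Cre. Naive CD4+ CD25-CD44-CD62L+ T cells of these donors had been transferred into Rag2-/- recipients, which lack T and B cells of their own, and the nodes were taken 6 weeks later. Such a transfer is a standard model of T cell-driven colitis. CD4-Cre is active from the CD4+CD8+ thymocyte stage, after the beta chain has been rearranged. According to the methods, mice were used at 6 to 8 weeks of age. The labels do not say whether donor cells were pooled or which mice were littermates. Because the libraries hold beta chain transcripts and nothing else, neither PRKAA1 nor the markers of the sorted cells could be checked.

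PRKAA1 encodes AMPKα1, the main catalytic subunit of AMPK in T cells. The AMPK complex senses a low energy state and turns cells from anabolic to catabolic metabolism. A defect in clonal growth could show in the TCR repertoire as a changed distribution of clone sizes or segments, which is the question these libraries address. Most T cells carry 1 productive beta chain, made by joining a V, a D and a J segment with trimming and random addition of nucleotides at the joints. The joint lies in the complementarity-determining region 3 (CDR3), the loop that contacts the peptide, so that a CDR3 nucleotide sequence serves as a tag of a clone. Here a clonotype is a distinct CDR3 nucleotide sequence, and its size is its number of unique molecular identifiers (UMIs), that is of tagged cDNA molecules. More UMIs can come from more cells or from more TCR mRNA per cell, which cannot be told apart. All segments named below lie in the Tcrb locus on mouse chromosome 6 (GRCm38, GENCODE M21). The locus starts with TRBV1 at 40891229 to 40891885, and TRBV13-1 lies at 41116007 to 41116468 and TRBV13-2 at 41121396 to 41121832. The first D and J cluster holds TRBD1 (41533201 to 41533212) and the TRBJ1 segments (41533864 to 41535606), and the second holds TRBD2 (41542163 to 41542176) and the TRBJ2 segments (41542754 to 41543856).

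The WT libraries held 11987 UMIs (replicate 1), 68536 UMIs (replicate 3) and 99487 UMIs (replicate 4), and the KO libraries 23756 UMIs (replicate 1), 127685 UMIs (replicate 2) and 2488 UMIs (replicate 3). KO replicate 3 is thus the smallest library, with 283 clonotypes against 1274 to 11767 in the others, and the differences that rest on it are also given without it. A count of 0 allows a share of up to 3 counts of the total, which was 0.121% in KO replicate 3 and at most 0.0250% elsewhere. Between 3.21% and 6.47% of the UMIs belonged to out-of-frame or stop-containing CDR3s. Among clonotypes of 1 UMI, CDR3 ends unusual for their J segment made up 2.42% to 3.96% in WT replicate 1, KO replicate 1 and KO replicate 3, and 26.1% to 32.6% in WT replicate 3, WT replicate 4 and KO replicate 2. KO minus WT differences within each of these kinds, with 1 mouse against 2 and hence no test, are therefore given after the pooled ones, first for few and then for many unusual J ends. Libraries with few such ends were also the smaller ones, with 2488 to 23756 UMIs against 68536 to 127685. Kind and library size therefore cannot be told apart. Within a mouse, 89.4% to 98.4% of mLN UMIs belonged to clonotypes that the spleen of the same mouse also held. Mere presence was not particular to the mouse, since the share reached 46.6% for WT replicate 1 mLN with the spleen of WT replicate 4. For clonotypes above 0.1% of the spleen, it was 50.9% to 76.6% within a mouse and at most 2.44% between mice.

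To show what the largest clones look like, the most abundant CDR3 of each node follows, 5′ to 3′ from the conserved cysteine codon to the conserved phenylalanine codon, with the nucleotides between the V-encoded and the J-encoded ends in capitals.
WT replicate 1, TRBV1 TRBJ2-1: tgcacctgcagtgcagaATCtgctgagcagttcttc
WT replicate 3, TRBV13-2 TRBJ2-4: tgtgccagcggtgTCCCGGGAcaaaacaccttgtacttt
WT replicate 4, TRBV13-2 TRBJ1-2: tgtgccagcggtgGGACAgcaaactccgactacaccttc
KO replicate 1, TRBV13-2 TRBJ1-2: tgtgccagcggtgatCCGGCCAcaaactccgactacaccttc
KO replicate 2, TRBV1 TRBJ1-1: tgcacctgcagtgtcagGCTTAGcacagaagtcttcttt
KO replicate 3, TRBV26 TRBJ2-1: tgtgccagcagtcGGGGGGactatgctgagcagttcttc
These CDR3s were 12 to 14 residues long. The gap between V and J measured 3, 8 and 5 nucleotides in WT replicates 1, 3 and 4 and 7, 6 and 6 nucleotides in KO replicates 1, 2 and 3. In KO replicate 3, the leading clonotype made up 12.8% of UMIs (Wilson 95% confidence interval 11.5% to 14.2%) and was also the first in rank in the spleen of that mouse, at 3.85%. The intervals cover counting error only. No leading clonotype exceeded 0.0611% in a library of another mouse.

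The UMIs of each library were divided by clone size at a common depth of 2488 UMIs, where a share of 1% corresponds to 25 or more UMIs and a share under 0.1% to 1 or 2 UMIs. Clonotypes of at least 1% made up 34.2%, 18.8% and 14.8% of UMIs in WT replicates 1, 3 and 4, and 33.6%, 25.0% and 56.4% in KO replicates 1, 2 and 3. The mean was 22.6% ± 10.2 (SD, n = 3) in WT and 38.3% ± 16.2 (SD, n = 3) in KO, and WT replicate 1 lay above 2 of the KO mice. The difference of 15.7 percentage points gave p = 0.3 in the two-sided exact permutation test, which cannot go below 0.1 with 3 mice against 3. It was 10.8 points among libraries with few unusual J ends and 8.16 among those with many. Without KO replicate 3, at the total of the next smallest library, it was 5.81 points (exact permutation p = 0.6, smallest possible 0.2).

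At the other end, clonotypes under 0.1% held 20.8%, 29.9% and 36.2% of UMIs in the WT mice and 19.0%, 22.6% and 7.19% in the KO mice. This came to 29.0% ± 7.78 in WT and 16.3% ± 8.08 in KO (SD, n = 3 each, exact permutation p = 0.2), and WT replicate 1 lay among the KO mice. The difference of -12.7 points was -8.92 without KO replicate 3, and -7.66 and -10.4 within the kinds of library. Between these classes, clonotypes of 0.1 to 1% held 48.4% ± 3.15 in WT and 45.4% ± 8.14 in KO (SD, n = 3 each, exact permutation p = 0.7), and the sign of the difference turned without KO replicate 3 (3.10 points at the larger depth) and differed between the kinds of library (-3.10 and 2.26). The number of clonotypes of at least 1% was 13.3, 7.22 and 8.60 in the WT mice and 13.0, 15.2 and 23 in the KO mice, as means over draws, with WT replicate 1 above KO replicate 1 (exact permutation p = 0.2). The difference of 7.35 was 3.67 without KO replicate 3, and 4.66 and 7.29 within the kinds of library. Clonotypes of 1 UMI made up 60.0% ± 6.26 of clonotypes in WT and 47.0% ± 12.7 in KO (SD, n = 3 each, exact permutation p = 0.2), a difference of -12.9 points that was -5.21 without KO replicate 3, and -11.1 and -6.22 within the kinds of library.

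**Figure D1:**
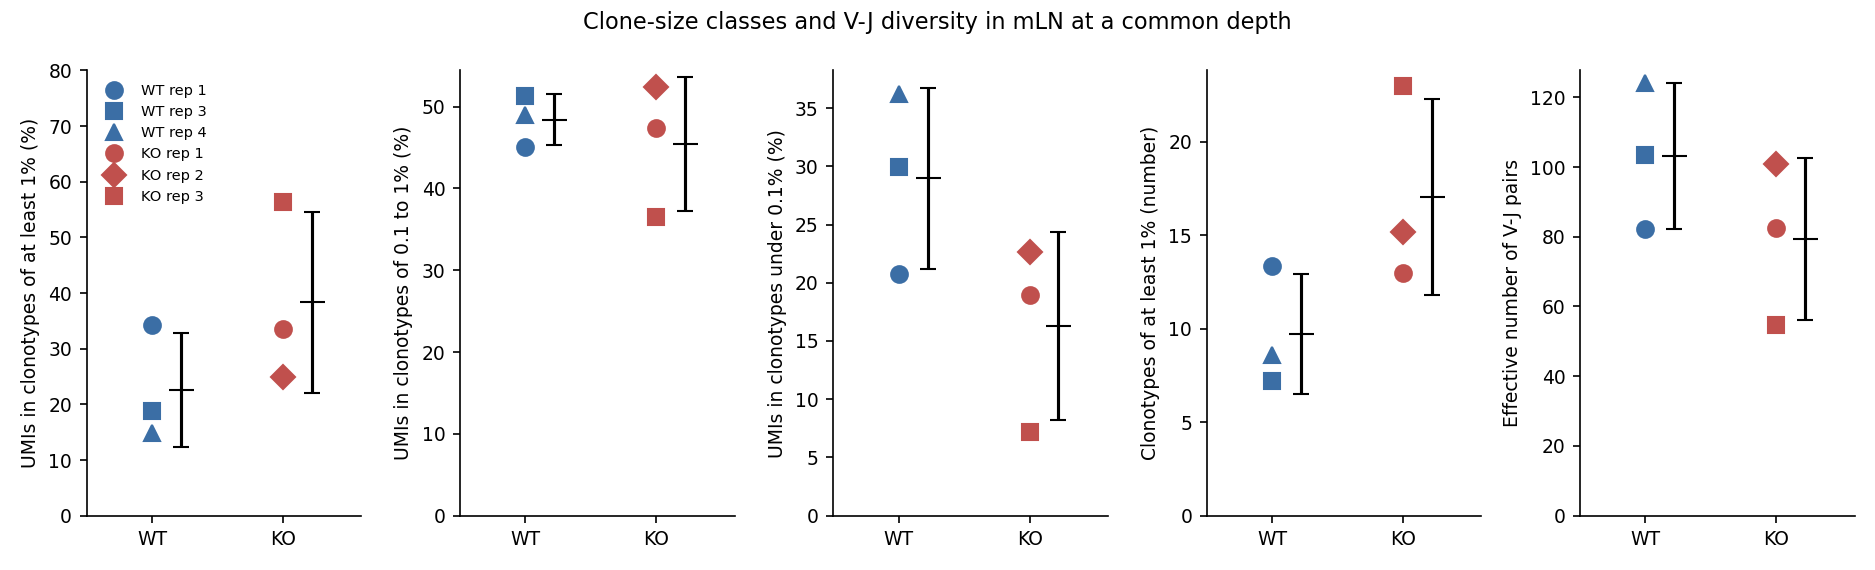
Clone-size classes and V-J diversity in the 6 mLN libraries at 2488 UMIs each (WT blue, KO red). The vertical axes give the percentage of UMIs in clonotypes of at least 1%, of 0.1 to 1% and under 0.1%, the number of clonotypes of at least 1%, and the effective number of V-J pairs; symbols are libraries and bars are mean ± SD (n = 3). WT and KO overlapped in all 5 panels, and KO replicate 3, the smallest library, was the highest for the large class (56.4%) and the lowest for the small class (7.19%).

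In the whole tables, 76 clonotypes reached 1% of their library, 13, 5 and 9 in WT replicates 1, 3 and 4 and 11, 15 and 23 in KO replicates 1, 2 and 3. All 76 were productive, and each was also present in the spleen of the same mouse. In the spleen, 8 of 13, 5 of 5 and 4 of 9 reached 1% as well in WT replicates 1, 3 and 4. The counts were 6 of 11, 5 of 15 and 4 of 23 in KO replicates 1, 2 and 3. The clonotypes were chosen by their share in mLN, which by itself favours lower counts in the spleen. The 76 clonotypes were spread over 56 V-J pairs, of which 10 recurred in more than 1 mouse and none in more than 3. The pairs seen in 3 mice were TRBV13-2 TRBJ2-5, TRBV1 TRBJ1-1 and TRBV13-1 TRBJ1-1. In the KO mice, 14 of 49 large clonotypes used TRBV13-2, namely 3, 4 and 7 in replicates 1, 2 and 3, and in the WT mice 3 of 27 did, 1 in each mouse. Without KO replicate 3, the KO count was 7 of 26. TRBV1 gave 5 large clonotypes in 2 WT mice and 3 in 1 KO mouse. The shares of TRBV13-2 and TRBV1 among all clonotypes are not set beside these counts. The counts therefore cannot show whether large clonotypes prefer a V segment in either genotype.

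V-J pairing was then described as a whole. The effective number of V-J pairs, the exponential of the Shannon entropy over UMIs, was 82.2, 103.5 and 124.1 in WT replicates 1, 3 and 4 and 82.6, 100.8 and 54.6 in KO replicates 1, 2 and 3. The genotypes overlapped, with 103.3 ± 20.9 in WT and 79.3 ± 23.3 in KO (SD, n = 3 each, exact permutation p = 0.3), and the difference of -23.9 was -12.3 without KO replicate 3, and -13.6 and -13.0 within the kinds of library. Among 250 distinct clonotypes, each counted once, the number of pairs was 130.4 ± 1.05 in WT and 128.4 ± 1.20 in KO (SD, n = 3 each, exact permutation p = 0.2). V-J mutual information, which rises with the dependence of J on V, was 0.667 ± 0.0333 bits in WT and 0.696 ± 0.0410 bits in KO (SD, n = 3 each, exact permutation p = 0.4). It was not corrected for the small number of clonotypes, which alone gives a value above 0. Its level therefore does not show a dependence, and only the genotypes can be compared. The share of clonotypes with a TRBJ2 segment was 65.4% ± 0.852 in WT and 66.5% ± 0.771 in KO (SD, n = 3 each, exact permutation p = 0.2). Within the kinds of library, the differences were -3.41 and -0.31 pairs, 0.0501 and 0.0402 for mutual information, and 1.01 and 1.10 points for TRBJ2. Without KO replicate 3, the difference in mutual information was 0.00891 against 0.0289 with it.

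For single V-J pairs, 206 of 301 pairs had at least 10 UMIs in at least 3 mLN libraries and were tested with edgeR's quasi-likelihood test. None differed at an adjusted p of 0.05 (0 of 206, 0%), and 15 pairs (7.28%) had an unadjusted p under 0.05. In 28 pairs (13.6%) WT and KO shares did not overlap, and 24 of these (11.7% of the pairs tested) were lower and 4 (1.94%) higher in KO, but 15 of the 28 were at 0 in KO replicate 3, whose depth left 77 of the 206 pairs at 0. Without that library the shares did not overlap in 44 pairs (21.4%), of which 36 (17.5%) were lower in KO. If genotype labels are permuted, untied values separate in a fraction of 0.1 of assignments with 6 mice and 0.2 with 5 mice. The rise from 13.6% to 21.4% therefore cannot be read as a wider separation of the genotypes. The spread between mice was wide, with a median dispersion of 1.04, a coefficient of variation of 102%. The 10 most used pairs of a library owed a median of 54.9% to 83.4% of their UMIs to a single clonotype.

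The pair with the smallest p was TRBV1 TRBJ1-2, at 0.5256%, 0.603% and 0.810% of UMIs in WT replicates 1, 3 and 4 and at 0.0126%, 0.0227% and 0% in KO replicates 1, 2 and 3. The groups did not overlap, and 0 of 2488 UMIs in KO replicate 3 allows a share of up to 0.121%, still under the lowest WT value. The log2 fold change was -5.36 ± 1.46 (SE), with an edgeR adjusted p of 0.254 over the 206 pairs, and from 0.00196 (DESeq2) to 0.646 over the alternatives. DESeq2 called this pair as its single difference. Few clonotypes carried it, with 5, 38 and 85 in the WT nodes, of which 1, 9 and 11 had more than 1 UMI, and 2, 6 and 0 in the KO nodes. In the spleens of the same mice, which are not independent samples, TRBV1 TRBJ1-2 stood at 0.222%, 0.983% and 0.5678% in WT and at 0.0200%, 0.101% and 0.193% in KO.

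TRBV13-1 TRBJ2-4 held 0.767%, 0.959% and 0.894% of UMIs in the WT nodes and 0.105%, 0.0885% and 0% in the KO nodes, again without overlap. Its log2 fold change was -3.58 ± 1.27 (SE, edgeR adjusted p = 0.507). In WT replicates 1 and 3, 80.4% and 74.4% of these UMIs came from 1 clonotype. TRBV15 TRBJ2-5 was also lower in every KO node, but its WT shares ranged from 0.114% to 1.802%, and in WT replicate 1 a single clonotype gave 95.4% of the pair (log2 fold change -3.38 ± 1.40 SE, edgeR adjusted p = 0.507).

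In the other direction, TRBV2 TRBJ1-3 stood at 0.0417%, 0.0409% and 0.0412% in WT replicates 1, 3 and 4 and at 0.105%, 0.118% and 2.01% in KO replicates 1, 2 and 3. All KO nodes lay above all WT nodes, with a log2 fold change of 4.12 ± 1.45 (SE, edgeR adjusted p = 0.507), which dropped to 1.44 without KO replicate 3, where 1 clonotype gave 70.0% of the pair. TRBV29 TRBJ1-6 and TRBV26 TRBJ1-4, the remaining pairs among the 6 with the smallest p, overlapped between the genotypes. TRBV29 TRBJ1-6 rested on WT replicate 1, where a single clonotype of 2.36% made up the whole pair, against 0.0525% and 0.0231% in the other WT nodes and 0%, 0% and 0.0402% in the KO nodes.

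The most used pairs over the 6 nodes were TRBV13-2 TRBJ2-5, TRBV13-2 TRBJ2-4, TRBV26 TRBJ2-1, TRBV1 TRBJ2-1 and TRBV13-1 TRBJ1-1, and each overlapped between WT and KO. TRBV26 TRBJ2-1 shows how 1 clone sets such a value. It stood at 12.9% in KO replicate 3, of which the leading clonotype printed above gave 98.8%, and at 0.130% and 0.186% in the other KO nodes, against 0.0334%, 1.503% and 0.210% in the WT nodes. Its log2 fold change of 2.91 turned to -1.88 without KO replicate 3.

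**Figure D2:**
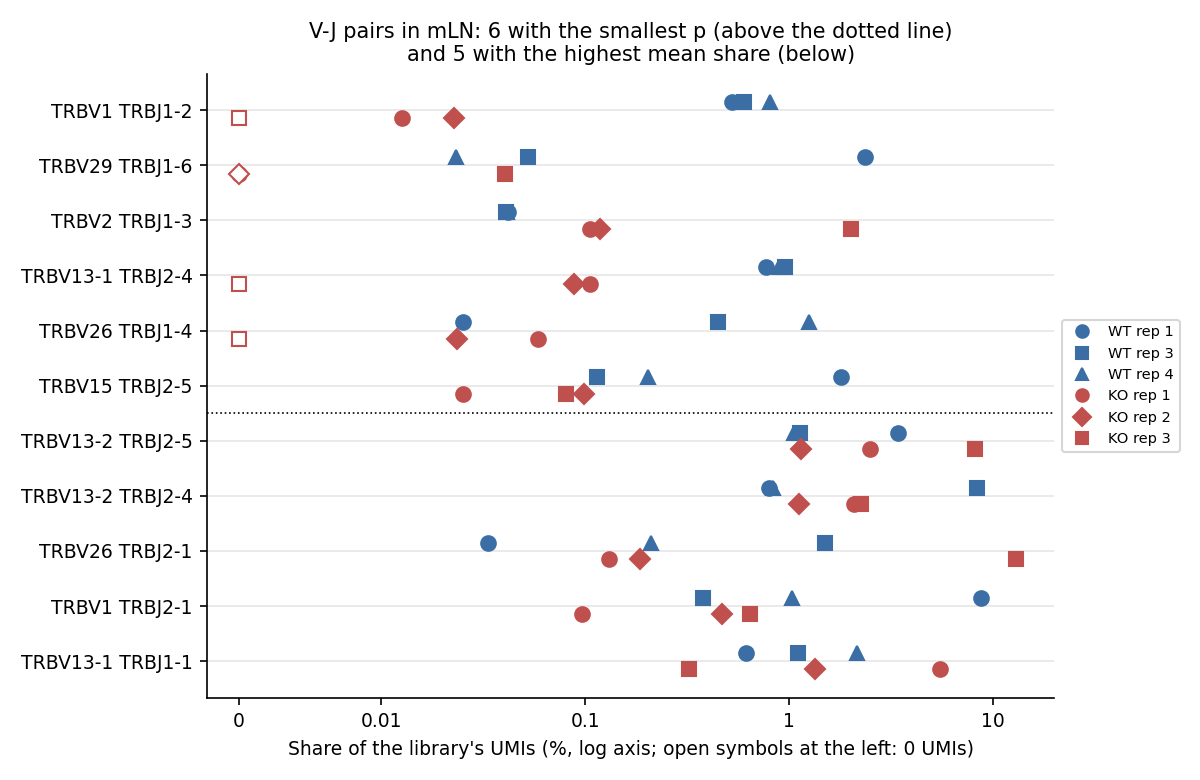
Share of UMIs (%, log axis) of single V-J pairs in each mLN library, with WT in blue and KO in red and 0 UMIs drawn as open symbols at the left. Above the dotted line are the 6 pairs with the smallest p and below it the 5 with the highest mean share; TRBV1 TRBJ1-2 lay at 0.5256% or more in WT and at 0.0227% or less in KO, whereas the most used pairs overlapped.

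All tested pairs with TRBJ1-5, a segment of the first J cluster, and with TRBV23 were described as groups. Both segments were chosen with earlier results of these data known, so the direction of their pairs is no independent support. Of 10 TRBJ1-5 pairs, 9 had a negative log2 fold change and 1 a positive one, against 117 of all 206 pairs with a negative one, though TRBV31 TRBJ1-5, one of the 9, was positive with TMM scaling (0.10) and with DESeq2 (0.0822). Their median was -1.92 against -0.20 over all 206 pairs. None was called (0 of 10), 1 of 10 had an unadjusted p under 0.05, against 7.28% of all pairs, and 3 of 10 did not overlap, against 13.6%. The pairs without overlap were those with TRBV1, TRBV19 and TRBV5. TRBV1 TRBJ1-5 and TRBV19 TRBJ1-5 were at 0 in KO replicate 3, which allows a share of up to 0.121%. Their lowest WT shares, 0.0438% and 0.0261%, lay under that bound, so their lack of overlap is not secure. TMM scaling moved the median of all pairs from -0.20 to -0.06, a shift that the single values share. TRBV1 TRBJ1-5 was the one with the smallest p, at 0.0918%, 0.0438% and 0.562% in WT and 0%, 0.0337% and 0% in KO, a log2 fold change of -3.91 ± 1.76 (SE, edgeR adjusted p = 0.507). TRBV2 TRBJ1-5 was the exception, at 0.00834% to 0.0895% in WT and 0.00842% to 0.452% in KO. Of 6 TRBV23 pairs, 5 had a negative log2 fold change (median -1.46), 1 had an unadjusted p under 0.05, and none was called or free of overlap. Other segments leaned the opposite way, and of 11 tested TRBV2 pairs 1 had a negative log2 fold change (median 0.63).

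Counting each clonotype once lowers the weight of large clones in the pair shares but does not remove it, since pairs with a large clone could also hold many small clonotypes. TRBV13-2 TRBJ2-4 in WT replicate 3, the pair of the leading clonotype printed above, held 212 clonotypes, of which 28 had more than 1 UMI. This alternative used whole libraries without downsampling, from 283 clonotypes in KO replicate 3 to 11767 in WT replicate 4. In it, 146 pairs passed the filter and 2 (1.37%) differed, both higher in KO. TRBV13-2 TRBJ2-3 made up 0.942%, 0.666% and 0.450% of clonotypes in WT replicates 1, 3 and 4 and 1.34%, 2.17% and 2.12% in KO replicates 1, 2 and 3. WT and KO did not overlap for this pair (log2 fold change 1.54, edgeR adjusted p = 0.00755). TRBV15 TRBJ1-1 made up 0.235%, 0.618% and 0.365% in WT and 0.334%, 2.34% and 1.06% in KO, with KO replicate 1 among the WT mice (log2 fold change 1.68, edgeR adjusted p = 0.0318). Most of these clonotypes had 1 UMI in KO replicate 2, where 17 of 175 and 15 of 189 had more, respectively, and where the 2 pairs held 3 and 2 clonotypes of at least 1%. When clonotypes of 1 UMI were left out, 63 pairs were tested and none was called, and the log2 fold changes were 0.78 (edgeR adjusted p = 0.750) and 0.47 (edgeR adjusted p = 0.771). With clonotypes counted at the common depth, 5 pairs passed the filter and none was called.

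A CDR3 length of 14 residues was the commonest in all 6 libraries, at 30.2% to 33.3% of productive clonotypes, and 12 to 15 residues covered 85.5% to 90.2%. The mean length was 13.79, 13.82 and 13.80 residues in WT replicates 1, 3 and 4 and 13.78, 13.74 and 13.84 residues in KO replicates 1, 2 and 3, so that WT lay inside the range of KO (exact permutation p = 0.7). The SD of the length was 1.38 residues in both genotypes (exact permutation p = 1). Within the kinds of library, KO minus WT was 0.0178 and -0.0748 residues for the mean and -0.0360 and 0.0228 for the SD.

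**Figure D3:**
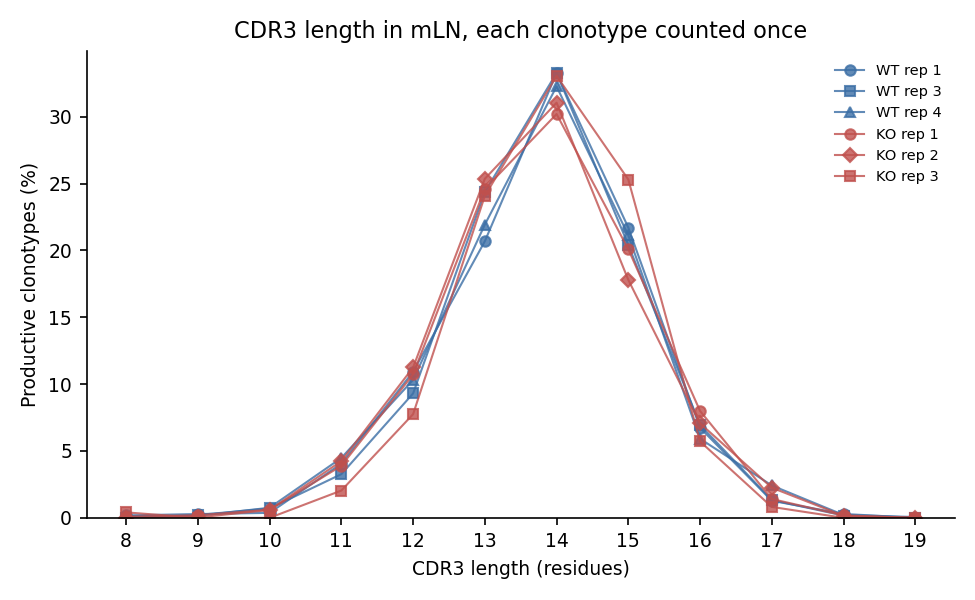
Percentage of productive clonotypes by CDR3 length in residues, each clonotype counted once, with 1 line per mLN library (WT blue, KO red). All 6 lines peak at 14 residues, and 12 to 15 residues hold 85.5% to 90.2%.

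The centre of the CDR3, taken as the residues left after removing 4 at each end, holds most of the peptide contacts. Its mean Kyte-Doolittle hydropathy was -1.19 ± 0.0269 in WT and -1.21 ± 0.0543 in KO (SD, n = 3 each, exact permutation p = 0.6), and its mean net charge was -0.441 ± 0.0273 and -0.460 ± 0.0847 (SD, n = 3 each, exact permutation p = 0.7). For charge, KO replicate 2 (-0.364) lay above and KO replicates 1 and 3 (-0.495 and -0.522) lay below all WT mice. Hydrophobic residues at both positions 6 and 7, a pairing known from self-reactive repertoires, were found in 2.62%, 2.47% and 2.45% of clonotypes in WT and in 2.04%, 2.04% and 3.27% in KO (exact permutation p = 1). Each of these differences had opposite signs in the kinds of library, -0.0370 and 0.0332 for hydropathy, -0.0416 and 0.0648 for charge and 0.0366 and -0.424 points for the hydrophobic pair. By group, hydrophobic residues made up 19.8% ± 0.4931 of the centre in WT and 19.4% ± 1.08 in KO, acidic residues 14.0% ± 0.225 and 14.4% ± 0.801, basic residues 7.27% ± 0.479 and 7.26% ± 0.826, and glycine 21.5% ± 0.662 and 21.3% ± 0.273 (SD, n = 3 each). In all 4 of these groups the genotypes overlapped.

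Of the 20 amino acids, 18 had enough counts for the test and none differed (0 of 18, 0%, with 0 at an unadjusted p under 0.05 in edgeR and in DESeq2). On simulated counts of these 18 residues, 85% of those changed 1.5-fold were recovered. That simulation used the median fitted dispersion, a coefficient of variation of 0.988% beyond counting error. The recovery holds only for so small a spread between mice, and a wider one would lower it. Leucine was the single residue whose shares did not overlap (1 of 18, 5.56%), at 5.56%, 5.32% and 5.60% in WT and 5.03%, 5.24% and 4.39% in KO, a log2 fold change of -0.14 (edgeR adjusted p = 0.903). Of 4503 runs of 3 residues, 36 passed the filter and none differed (0 of 36, 0%), with 2 (5.56%) at an unadjusted p under 0.05. GQG, a run that TRBD1 can encode, made up 0.643%, 0.675% and 0.848% of motif counts in WT and 0.787%, 1.31% and 1.47% in KO, a log2 fold change of 0.62 (edgeR adjusted p = 0.806). GSS was lower in every KO node, at 0.375% to 0.742% in WT and 0.210% to 0.352% in KO, a log2 fold change of -0.84 (edgeR adjusted p = 0.844).

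Joint structure was read from the alignment positions in the tables. V segments contributed 13.7 ± 0.0911 nucleotides of the CDR3 in WT and 13.6 ± 0.109 in KO, J segments 18.9 ± 0.0769 and 18.9 ± 0.0578, and the gap between them measured 8.87 ± 0.0863 and 8.79 ± 0.162 nucleotides (SD, n = 3 each, exact permutation p from 0.4 to 0.6). A D segment was called in 68.5% to 72.0% of clonotypes. The insertion between V and D measured 1.30, 1.48 and 1.42 nucleotides in the WT nodes and 1.22, 1.42 and 1.22 in the KO nodes, with KO replicate 2 among the WT mice (exact permutation p = 0.2). Between D and J it was 1.32 ± 0.0774 in WT and 1.33 ± 0.124 in KO (SD, n = 3 each, exact permutation p = 1). No insertion at either joint was seen in 13.5% to 17.0% of clonotypes with a D call. Within the kinds of library, V nucleotides differed by -0.128 and -0.169, J nucleotides by 0.158 and -0.0419, the gap by -0.143 and 0.0918, D calls by -1.297 and 1.16 points, and the V to D and D to J insertions by -0.0791 and -0.0313 and by 0.00497 and 0.109 nucleotides.

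TRBD1 lies upstream of both J clusters and can join either, whereas TRBD2 lies downstream of the TRBJ1 segments. Calls in which both D segments scored alike, 10.5% to 13.7% of D calls in WT and 5% to 10.8% in KO, were left out of the D shares. With TRBJ2, TRBD1 was called in 35.7%, 40.1% and 34.7% of the remaining clonotypes in WT replicates 1, 3 and 4 and in 43.7%, 40.7% and 38.3% in KO replicates 1, 2 and 3. The means were 36.8% ± 2.84 and 40.9% ± 2.66 (SD, n = 3 each, exact permutation p = 0.2), with WT replicate 3 above KO replicate 3. The difference of 4.10 points was 5.34 and 3.34 within the 2 kinds of library and 3.97 without KO replicate 3. Calls of TRBD2 with TRBJ1, an order that deletional joining cannot give, made up 7.02% to 13.2% in these libraries and serve as a measure of D miscalls. Out-of-frame or stop-containing CDR3s made up 11.2% ± 0.518 of clonotypes in WT and 12.3% ± 2.74 in KO (SD, n = 3 each, exact permutation p = 0.5), with differences of -0.214 and 3.27 points within the kinds of library.

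Large clonotypes were also compared with small ones inside each node, as those of at least 0.1% against those under 0.1% of the 2488 UMIs. This comparison was added after the values had been seen. Large clonotypes had shorter gaps between V and J in 6 of 6 mice, 8.45, 8.47 and 8.07 nucleotides against 9.04, 9.13 and 9.03 in WT replicates 1, 3 and 4, and 8.36, 8.52 and 8.57 against 8.98, 9.09 and 8.74 in KO replicates 1, 2 and 3. The mean difference was -0.597 ± 0.253 nucleotides (SD, n = 6, exact sign-flip permutation p = 0.0312, the smallest the test can give, adjusted p = 0.0781 over 10 measures). They also kept more J nucleotides in 6 of 6 mice, 19.1 ± 0.157 against 18.8 ± 0.0661 (SD, n = 6, same p). V nucleotides did not follow, at 13.7 in both classes, higher in the large class in 4 of 6 mice.

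The same split gave a non-productive share of 4.87% ± 1.13 among large and 15.2% ± 3.95 among small clonotypes (SD, n = 6, lower in 6 of 6 mice, exact sign-flip permutation adjusted p = 0.0781). The gap and the V and J nucleotides were averaged over all clonotypes, non-productive ones included. Their differences were not measured among productive clonotypes alone, so they include this difference in composition. Net charge of the CDR3 centre was lower in the large class in 6 of 6 mice, with a mean difference of -0.0330 (exact sign-flip permutation adjusted p = 0.0781). By genotype, the gap difference was -0.740 nucleotides in WT and -0.454 in KO, and the values of the 2 genotypes overlapped. Without clonotypes of 1 UMI, the gap difference was -0.323 nucleotides (lower in 5 of 6 mice) the J difference 0.263 nucleotides (higher in 6 of 6 mice) and the charge difference -0.0118 (lower in 5 of 6 mice). The charge difference was also lower in 5 of 6 mice with unusual J ends removed (-0.0289) or without downsampling (-0.0596). CDR3 length, D calls, TRBJ2 share, hydropathy and the hydrophobic pair at positions 6 and 7 had no common direction over the mice.

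**Figure D4:**
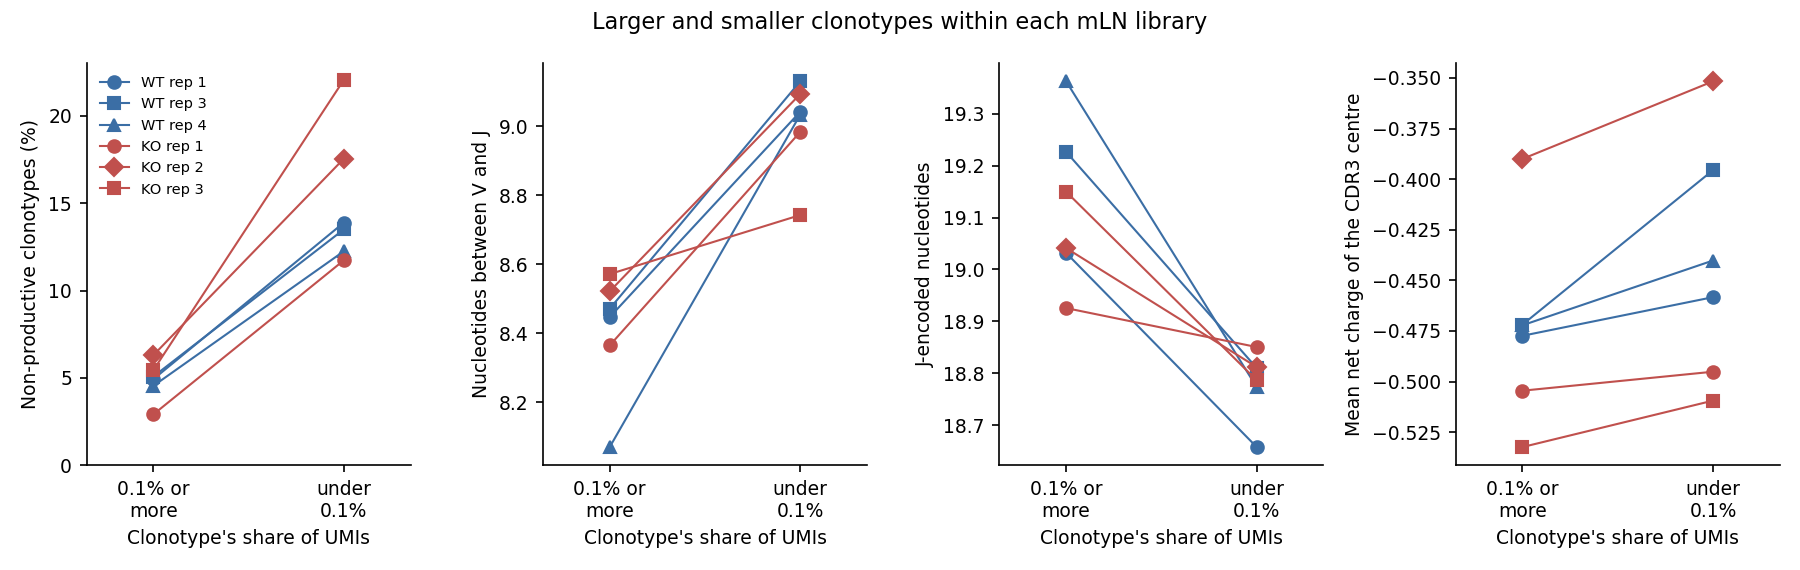
Non-productive share (%), nucleotides between V and J, J-encoded nucleotides and mean net charge of the CDR3 centre in clonotypes of 0.1% or more and under 0.1% of UMIs, with 1 line per mLN library (WT blue, KO red; the axes of the last 3 panels do not start at 0). All 6 lines run in the same direction in each panel, for example from 8.07 to 8.57 nucleotides in the large class up to 8.74 to 9.13 in the small class for the gap.

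Finally, sharing between the nodes of different mice was measured. At 2488 UMIs, mice of the same genotype had 8.55 amino acid CDR3s in common on average over 6 pairs, and mice of different genotypes 4.25 over 9 pairs. The difference of 4.30 gave p = 0.2 in the exact permutation of the genotype labels. This is the smallest p possible for this measure, because swapping WT and KO leaves it unchanged. The difference rested on KO replicates 2 and 3 with 19.7 and WT replicates 3 and 4 with 13.0, while KO replicates 1 and 2 had 2.06, less than most pairs of different genotype. Without KO replicate 3 the difference was 1.97 at this depth (exact permutation p = 0.4) and 12.6 at 11987 UMIs (exact permutation p = 0.2, the smallest possible). In all 6 libraries it was 63.5 without downsampling, and it was 1.99 when sequences 100-fold or more above their level here in a library of another mouse were dropped.

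In the whole tables, 143 nucleotide clonotypes were common to KO replicates 2 and 3. They made up 82.8% of the UMIs of KO replicate 3 but 2.06% of those of KO replicate 2, and 62 of them were at least 100 times more frequent in KO replicate 3. The spleen of KO replicate 3 held 139 of the 143 and the spleen of KO replicate 2 held 19. A like imbalance was seen within WT, where 54 clonotypes common to replicates 1 and 4 made up 41.1% of the UMIs of replicate 1 and 4.44% of replicate 4. Across genotypes, 4 to 28 nucleotide clonotypes were common to a pair, with at most 7.11% of UMIs. What produced the shared sequences was not tested. Over all 6 nodes, 22435 productive amino acid CDR3s were found, of which 753 occurred in at least 2 mice, 93 in at least 3, 10 in at least 4, 3 in 5 and 0 in 6. One of these 3, mainly with TRBV3 TRBJ1-1 and encoded by 3 nucleotide sequences, reached 2.10% in WT replicate 4 and 0.265% in KO replicate 1 and stayed at or under 0.0804% in the other nodes.

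**Figure D5:**
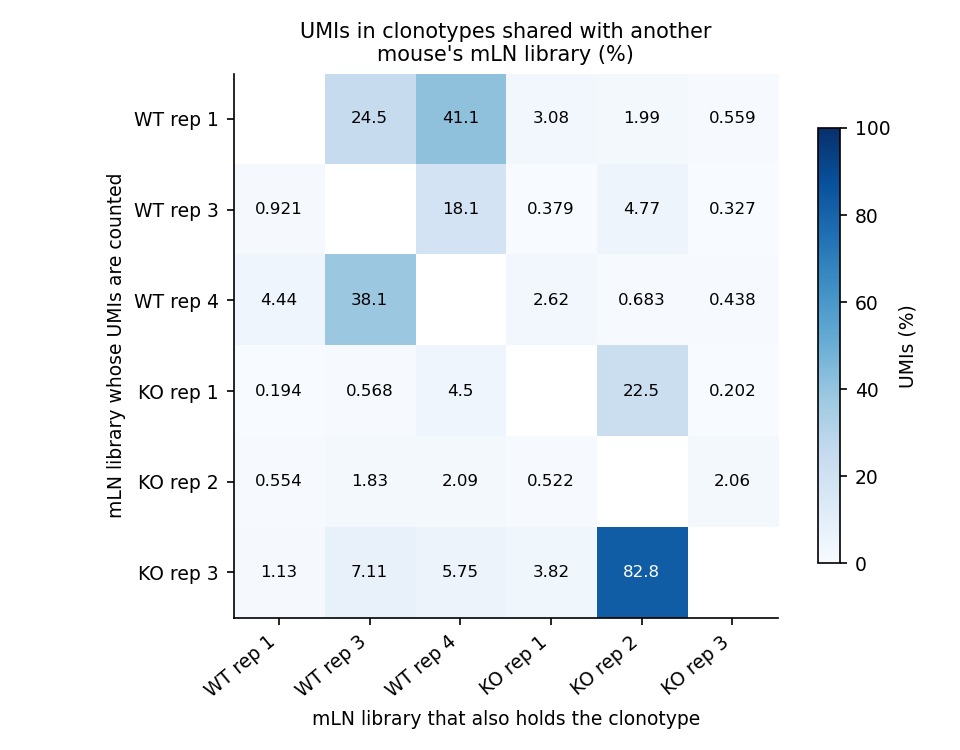
Percentage of the UMIs of each mLN library (rows) that belong to nucleotide clonotypes also found in the mLN library of another mouse (columns), on a colour scale from 0 to 100%. The highest value is 82.8%, for KO replicate 3 in KO replicate 2, followed by 41.1% for WT replicate 1 in WT replicate 4, and no pair of different genotype exceeds 7.11%.

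To see whether the genotype difference was particular to the node, the mLN minus spleen difference of each mouse was compared between WT and KO for 23 measures. None passed (adjusted p from 0.46 upwards), and in 5 measures WT and KO did not overlap, each at p = 0.1, the smallest the exact permutation test allows. The share of clonotypes with 1 UMI differed by 0.852, 1.64 and 2.58 points in WT replicates 1, 3 and 4, higher in mLN, and by -1.10, -1.22 and -27.7 points in KO replicates 1, 2 and 3, lower in mLN. The last of these values comes from the smallest library, without which the gap between KO and WT was -2.85 points instead of -11.7. KO replicate 3 was also the only mouse whose organs differed in kind of library. Unusual J ends made up 3.23% of its clonotypes of 1 UMI in mLN (2488 UMIs) and 34.9% in spleen (220935 UMIs). What this contributes to its organ differences was not tested. For the number of clonotypes of at least 1%, the mean difference was -1.13 in WT and 4.03 in KO, and the gap of 5.16 between them was 2.39 without KO replicate 3. Between-organ differences in V nucleotides, D calls and the SD of CDR3 length also did not overlap. For V nucleotides the gap of 0.0738 between KO and WT was 0.0198 without KO replicate 3, for the SD of length the gap of 0.0508 was 0.0243, and for D calls the gap of 1.24 points was 1.33.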

How the data were processed

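The authors amplified TCR beta cDNA by 5′ RACE from constant-region primers, with UMIs, sequenced them on a MiSeq instrument, and used MIGEC for UMI correction and MiXCR for clonotype assembly, per their methods. Versions and the segment reference are not given in the sources used here. Each deposited table gives a whole-number clone count per clonotype, taken as UMIs, and the deposited clone fraction is that count over the library total. UMI errors and the merging of similar CDR3s could not be redone.

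Counts were summed per CDR3 nucleotide sequence. Scalar measures are means over 50 seeded draws of 2488 UMIs (11987 without KO replicate 3), compared unpaired by two-sided exact permutation tests over 20 assignments, with Benjamini-Hochberg adjustment over 24 measures (adjusted p from 0.6 to 1). V-J pairs, residues and motifs with at least 10 counts in 3 libraries were tested with edgeR 4.0.16 (R 4.3.3) on library totals, with DESeq2 1.42.0 as an alternative. SEs of log2 fold changes are the fold change over the square root of the F statistic. Simulated counts used the median fitted dispersion. In them, 13.1% of 16-fold and 0% of 4-fold changes were recovered among 206 V-J pairs, and 50% of 2-fold changes among 36 motifs. For residues and motifs this dispersion was a coefficient of variation of 0.988%, so their recovery holds only for so small a spread between mice. V and J alignments that overlap (1.28% to 2.83% of clonotypes) gave negative gaps and were kept. SciPy 1.17.1 and pandas 2.3.3 were used.

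Named were the 6 features with the smallest p where fewer than 6 passed, the 5 most used pairs, TRBJ1-5 and TRBV23 pairs, fixed residue groups and the leading clonotypes. The members and lists were chosen with earlier results of these data known. The legend of the paper's supplementary repertoire figure gives a single experiment with 3 mice per group. The p-values therefore measure the spread between these mice within that experiment.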

Additional observations from a re-analysis of the deposited data

Results flagged for a closer look

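In 2 measures, every WT mouse and every KO mouse differed between the organs in opposite directions. The share of clonotypes with 1 UMI was higher in mLN than in spleen in 3 of 3 WT mice (mean 1.69 points) and lower in 3 of 3 KO mice (mean -9.995 points), a difference of -11.7 points (exact permutation p = 0.1, the smallest possible, adjusted p = 0.46). Without KO replicate 3, whose value was -27.7 points and whose mLN and spleen libraries differed in kind, the difference was -2.85 points. The SD of CDR3 length was lower in mLN in 3 of 3 WT mice (mean -0.0128 residues) and higher in 3 of 3 KO mice (mean 0.0380 residues), a difference of 0.0508 residues (exact permutation p = 0.1, adjusted p = 0.46). Without KO replicate 3 it was 0.0243 residues.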

How the results depend on the processing

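No scalar difference between WT and KO could reach p = 0.05 in the exact permutation test, so the alternatives bear on direction and size. Of the scalar results, 177 values under other settings and 130 with 1 mouse left out kept their direction, and 29 and 14 turned. With the smallest library left out, at 11987 UMIs, KO minus WT turned for the 0.1 to 1% class (3.10 points), the SD of CDR3 length (-0.0176 residues), net charge (0.0150), D calls (-0.0375 points), the D to J insertion (-0.0158 nucleotides) and nucleotide clonotypes per amino acid CDR3 (-0.00256). Without downsampling it turned for mutual information (-0.00217), the SD of length (-0.0219), the hydrophobic pair (0.440 points), D calls (-0.00841 points), the D to J insertion (-0.0906) and nucleotide clonotypes per amino acid CDR3 (-0.00233). Without clonotypes of 1 UMI it turned for mean length (0.000873), its SD (-2.63e-05), the V to J gap (0.00984), D calls (-0.308), the non-productive share (-0.233) and nucleotide clonotypes per amino acid CDR3 (-0.000239). Weighting by UMIs turned mean length (0.00409), its SD (-0.0862), the hydrophobic pair (1.01), D calls (-0.0348) and the non-productive share (-1.24). At 1000 UMIs the SD of length was -0.00154, and without sequences at least 100-fold more frequent elsewhere the D to J insertion was -0.00240. In each case the cause was not tested.

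WT and KO mice share replicate numbers 1 and 3 but no stated origin, and their deviations from the group means correlated at 0.131 and 0.316 over V segments and at -0.101 and 0.165 over V-J pairs. With the replicate block, mean length (0.00605), the hydrophobic pair (0.110), the D to J insertion (-0.0202) and the non-productive share (-0.166) turned, and no pair, residue or motif was called (0 each, with 0 at an unadjusted p under 0.05 in edgeR). With 2 pairs the smallest p is 0.5.

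Leaving out 1 mouse at a time turned the 0.1 to 1% class (-6.49 to 1.47), mean length (-0.0472 to 0.00759), its SD (-0.0427 to 0.0267), hydropathy (-0.0514 to 0.000391), charge (-0.0672 to 0.0121), the hydrophobic pair (-0.475 to 0.139), D calls (-0.0295 to 1.72), the D to J insertion (-0.0625 to 0.0578) and nucleotide clonotypes per amino acid CDR3 (-0.00238 to 0.00726). Among pairs it turned the log2 fold change of TRBV26 TRBJ2-1 (-1.88 to 5.14), TRBV23 TRBJ2-5 (-3.19 to 0.41), TRBV13-2 TRBJ2-5 (-0.0475 to 1.83), TRBV13-1 TRBJ1-1 (-0.61 to 1.47), TRBV13-2 TRBJ2-4 (-1.34 to 1.16) and TRBV31 TRBJ1-5 (-3.10 to 0.35). For the large against small classes it turned CDR3 length (-0.0234 to 0.0232), the TRBJ2 share (-0.229 to 1.67) and the hydrophobic pair (-0.197 to 0.164). No count of called features changed from 0.

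The count of called V-J pairs was 0 as reported, 1 with DESeq2 (30 at an unadjusted p under 0.05), 1 without the filter (TRBV29 TRBJ1-6, 32 unadjusted) and 2 with clonotypes per pair, and 0 under the other settings. TRBV31 TRBJ1-5 was 0.10 with TMM and 0.0822 with DESeq2. Clonotypes per pair gave -0.23 for TRBV26 TRBJ2-1, -0.43 for TRBV13-2 TRBJ2-5 and -0.15 for TRBV13-1 TRBJ1-1. With clonotypes of more than 1 UMI the last pairs stood at -0.32 and -0.14, and TRBV13-2 TRBJ2-5 at the common depth at -0.24, both added after the data were seen. No residue turned, and of the motifs NQD did when weighted by UMIs (-0.44). Between large and small clonotypes, V nucleotides (-0.000933) and the hydrophobic pair (0.187) turned without clonotypes of 1 UMI, and D calls (0.147) without downsampling. These alternatives were also added after the data were seen.

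At 1000 UMIs, the measures among 250 clonotypes could not be computed in KO replicate 3, and the class under 0.1% is empty, since 1 UMI is 0.1% there, so that its UMIs count in the 0.1 to 1% class (KO minus WT -15.6 points). A count of 0 in KO replicate 3 allows a share of up to 0.121%, and its total sets the common depth for all libraries.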
